A study of Caenorhabditis elegans with 3 samples.

Results

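The peaks described here are the 438 of 5993 (7.31%) reproducible UNC-55 peaks whose summit lay inside an annotated exon of a protein-coding gene. The summit is the single base that the deposited peak list marks as the highest point of a peak, and exons were taken from Ensembl release 115 on the WBcel235 assembly (ce11). Coding sequence held 113 of these summits and untranslated regions (UTRs) held 320, of which 203 were in 5′ UTRs, 111 in 3′ UTRs and 6 in the 5′ UTR of a gene that is also the 3′ UTR of its neighbour. The other 5 lay in exons of non-coding transcripts of protein-coding genes. Introns held 1497 summits and intergenic sequence 4058. UNC-55 was mapped by chromatin immunoprecipitation and sequencing (ChIP-seq) in whole L2 larvae, of mixed sex, with 3 biological replicates in 1 group. All came from strain NC1639, which carries wdIs49, an integrated transgene on chromosome III made of the ttr-39 promoter (pttr39), UNC-55a with GFP, and a dpy-20+ marker. The tagged protein is therefore a single isoform made from an added transgene, in the cells in which that promoter is active, beside the animal's own unc-55. The sample descriptions name eGFP-unc-55, and a note on replicate 3 describes a C-terminal GFP-FLAG fusion. The labels state fragments of 150 to 350 bp in replicates 1 and 2, but microtip sonication in replicate 3, so that preparation and replicate 3 cannot be told apart. The files hold no read counts. Depth is therefore unknown, and no untagged or wild-type sample was analysed here.

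UNC-55 belongs among the COUP-TF nuclear receptors, which bind DNA through zinc fingers that recognise the core AGGTCA. In ventral D motor neurons it represses genes that would otherwise remodel their GABA synapses. Transcription factors mostly occupy sequence upstream of genes. Exons are a less usual place for a summit, but the compact worm genome sets the 5′ end of one gene close to, or inside, the end of the next. The 5′ UTR lies beside the promoter, and many worm mRNAs receive a spliced leader in trans, which removes the original 5′ end, so that an annotated start can be a splice site and not the site where transcription began. The 3′ UTR follows the stop codon and ends at a cleavage site preceded by a poly(A) signal.

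The exonic peaks listed below ran from rank 28, at rab-18, to rank 4442, at vps-26, in the optimal list. A pair of short blocks recurred near their summits, whichever kind of exon the summit was in. The sequences below are shown because they share it: each is 30 bases of the RefSeq ce11 sequence, written 5′ to 3′ on the strand that reads GGAGCGC, and the capitals mark GGAGCGC and, after any pair of bases, TTGCA.
rab-18, 5′ UTR peak, chrIII:1080722-1080751, plus strand: agagcgatGGAGCGCacTTGCActtggcac
C34C12.2, 5′ UTR peak, chrIII:3456418-3456447, minus strand: cgtgcggtGGAGCGCgcTTGCAtcgcgcaa
daf-15, coding exon peak, chrIV:9386219-9386248, plus strand: agtgcaacGGAGCGCacTTGCAcgaatcac
C06H5.8, 3′ UTR peak, chrV:17921624-17921653, plus strand: gtagcgatGGAGCGCacTTGCAtttttgga
unc-69, 5′ UTR peak, chrIII:10318923-10318952, plus strand: aatacatcGGAGCGCatTTGCAttgccaag
mtg-1, 5′ UTR peak, chrIII:1533740-1533769, minus strand: gtagcaatGGAGCGCaaTTGCAgagtcaat
K10B3.5, 5′ UTR peak, chrX:3106289-3106318, plus strand: ttgtcggtGGAGCGCacTTGCAtacaacgt
ech-2, 3′ UTR peak, chrIV:11854981-11855010, plus strand: agtgcgatGGAGCGCgaTTGCActacgttt
vps-26, coding exon peak, chrIV:9341768-9341797, plus strand: atcgcaatGGAGCGCtcTTGCAtaccccct

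The pair of blocks was found after these sequences had been seen, so its shares at summits, in flanks and in peaks are descriptions only. The pair was then counted, on either strand, up to 50 bp from each summit. It stood near 11 of the 438 exonic summits (2.51%), those of 3 coding exon, 5 5′ UTR and 3 3′ UTR peaks, against 80 of all 5993 summits (1.33%). The class is that of the summit, and the blocks themselves lay wholly in exons at 8 of the 11 peaks, partly at unc-69 and ech-2, and just outside the exon at mtg-1. Equal windows 300 bp to the left of the exonic summits held 0, and those to the right held 1. Across the 438 summits and across the whole list, the blocks occurred with 2 bases between them and never with 0, 1, 3, 4 or 5. In the genome they occurred 1077 times, with 11 occurrences in coding sequence, 7 in 5′ UTRs and 28 in 3′ UTRs. Optimal peaks held 3 of the 11 coding occurrences, 4 of the 7 in 5′ UTRs and 3 of the 28 in 3′ UTRs, beside 12 of 636 in introns (1.89%), 74 of 395 in intergenic sequence (18.7%) and 96 of all 1077 (8.91%). All letters of the blocks were in lower case, the mark for repeated sequence in the RefSeq file, at 90.8% of the 1077 occurrences, and 35.7% of the genome is in lower case. Whether this repeated character bears on the peaks was not tested. Each of the 9 printed stretches occurred 1 time in the genome as a whole 30-base sequence. Among the hosts, rab-18 encodes a small GTPase of membrane traffic, daf-15 the worm Raptor of the TORC1 complex, unc-69 a coiled-coil protein needed for axon outgrowth and vps-26 a retromer subunit.

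Some 6-base words were more frequent at exonic summits than beside them, and the sequences for 2 of them, followed by the rare AGGTCA, show the context. In the lines that follow the capitals mark the word named, on the strand of the host gene. The last line is the strongest coding exon peak, where the capital is the summit base.
GAGAGA in the coding exon peak of abhd-5.2, chrV:4844813-4844842, plus strand: agtgtgcagtttGAGAGAgcgcagtcacat
GAGAGA in the 5′ UTR peak of R04E5.9, chrX:8811147-8811176, minus strand: tagggcattggcGAGAGAgtgtgtgaaaaa
GAGAGA, read on the other strand, in the 3′ UTR peak of C06H5.8, chrV:17921602-17921631, plus strand: ctgcgtctctTCTCTCTCgcacgtagcgat
ACGCAG, read on the other strand, in the coding exon peak of lelo-4, chrII:5715004-5715033, plus strand: gcggtcagtgcgCTGCGTgtcaccctgcgg
ACGCAG in the 5′ UTR peak of fan-1, chrIV:6548817-6548846, plus strand: tatagagtcgagACGCAGagacaacgcgcg
ACGCAG, read on the other strand, in the 3′ UTR peak of K08F9.3, chrV:15143996-15144025, plus strand: cactctcactttCTGCGTctcttcagtttt
AGGTCA in the 5′ UTR peak of duxl-1, chrII:1663686-1663715, plus strand: atgacgtcacggAGGTCActcgcctgccga
Summit of the coding exon peak of pks-1, chrX:5429523-5429552, plus strand: cactctaaccttatcCaagagactcatctc

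Searched on both strands within 50 bp of the summit, GAGAGA was present at 20 of 113 coding exon peaks (17.7%), 65 of 203 5′ UTR peaks (32%) and 25 of 111 3′ UTR peaks (22.5%), against 26.9% of all optimal peaks. In windows of the same size 300 bp to either side, the shares were 7.08% and 7.08% for coding exon peaks, 5.91% and 8.87% for 5′ UTR peaks, and 5.41% and 9.01% for 3′ UTR peaks. Of windows centred on every 200th base of the same kind of sequence, 5.24% in coding exons, 8.49% in 5′ UTRs and 7.77% in 3′ UTRs held it. Thus each exonic class had the word more often at its summits than in its own flanks, and the share at coding exon summits was below that of the whole list, a difference that was not tested. The words GAGCGC and, beside it, ACGCAG were picked after a ranking of all words over these summits, so their shares are descriptions only. GAGCGC stood at 10 coding exon summits (8.85%), 39 5′ UTR summits (19.2%) and 12 3′ UTR summits (10.8%), against 10.6% of the whole list. Over all 438 exonic peaks, GAGCGC was in 1 left flank and 5 right flanks. The word ACGCAG was at 8.85% of coding exon, 19.2% of 5′ UTR and 14.4% of 3′ UTR summits, against 15.1% of the whole list.

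The core AGGTCA itself was rare. It stood within 50 bp of 0 of 113 coding exon summits, which allows a share of up to 2.65% (3 peaks, counting error only), and of 3 of 320 UTR summits (0.938%). In the whole list 82 of 5993 summits (1.37%) had it. It is also uncommon in the same kinds of sequence, at 2.15% of windows along all coding exons, 3.06% along 5′ UTRs and 1.46% along 3′ UTRs. The limit for coding exon summits thus takes in the share of coding exon windows. The UTR peaks with the core were duxl-1, a homeobox gene (signal 67.4), T23G4.127 (51.3) and imb-1, an importin gene (46.8), all in the weaker part of the list. The flanks of these classes held it more often than the summits did, at 2.5% on either side for UTR peaks and 1.77% on either side for coding exon peaks. For 5′ UTR peaks alone the left flank equalled the summit, at 0.985% each, and the right flank had 2.46%. A direct repeat of the core with 1 base between, a form bound by nuclear receptor dimers, was found at no optimal summit. These shares say only that the letters are not in this window. TTTCAG, the usual end of a worm intron, was counted on either strand, and so not only in the host's sense. It was at 11.5% of coding exon summits, 7.88% of 5′ UTR summits and 9.91% of 3′ UTR summits, and at 18.7% to 27.4% of their flanks. The whole list showed the same, with TTTCAG at 7.58% of summits and at 20.3% and 20.9% of flanks. The poly(A) signal word AATAAA was also counted on either strand. It was at 36 of 111 3′ UTR summits (32.4%), against 23.4% and 24.3% of their flanks and 41.5% of windows along all 3′ UTRs. It was at 15.3% of the summits of the whole list.

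**Figure D1:**
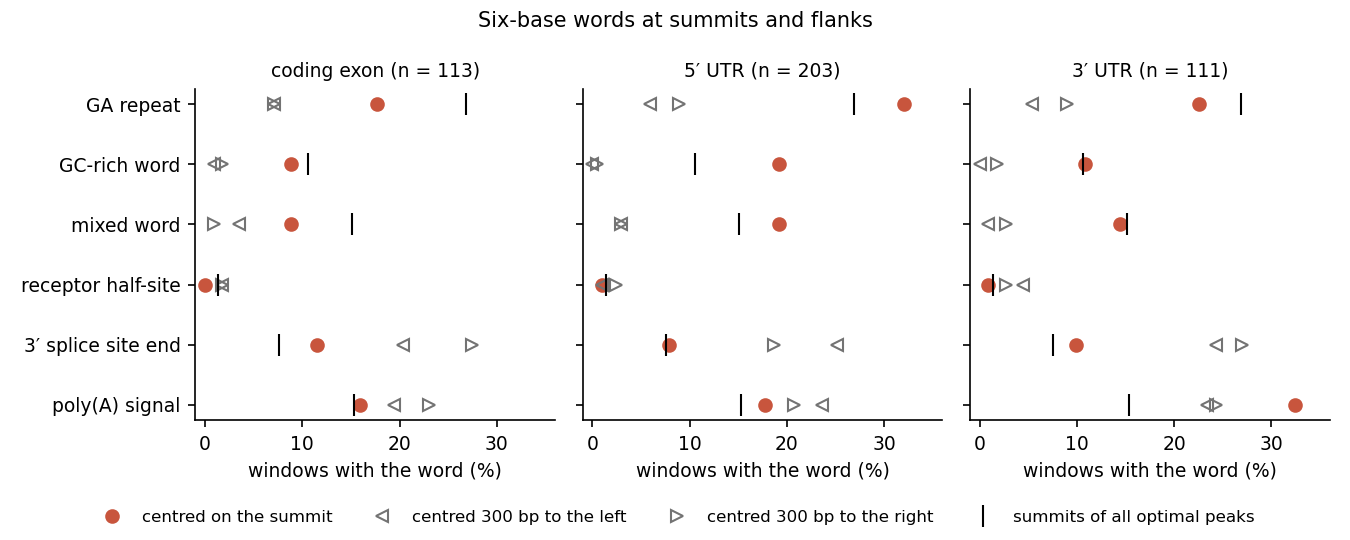
Share of windows reaching 50 bp to each side that hold a 6-base word on either strand (horizontal axis, percent), for coding exon, 5′ UTR and 3′ UTR peaks. The GA repeat is GAGAGA, the GC-rich word is GAGCGC, the mixed word is ACGCAG, the receptor core is AGGTCA, the splice site end is TTTCAG, and the poly(A) signal is AATAAA. Filled circles are windows centred on the summit, open triangles those 300 bp to the left and right in genome orientation, and vertical ticks the summits of all optimal peaks. In each class the upper 3 words are more frequent at summits than in flanks, up to 32% for GAGAGA in 5′ UTRs. GAGCGC and ACGCAG were picked from a ranking over these same summits, so their excess is a description only. TTTCAG is less frequent at summits, as it is over the whole list.

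Coding exons held a smaller share of the strongest entries of a replicate list than of the remaining ones, in every replicate. Each replicate list was divided into its 5993 peaks of highest signal, as many as the optimal list holds, and the rest. The pooled list is named as peaks and background, input for the authors' reproducibility threshold. The replicate lists are of similar length, so their remaining entries can include background and are not a set of weaker binding sites. Coding exons held 2.04%, 1.95% and 2.60% of the strongest summits in replicates 1, 2 and 3, against 15.5%, 14% and 16.2% of the remaining summits. The difference was -13.03 percentage points on average ± 0.860 (SD, n = 3), more than the spread between replicates. Coding sequence makes up 24.7% of the genome, so both shares were below it. All UTRs as 1 class differed less, with 5.51%, 5.72% and 6.22% of the strongest summits and 6.21%, 6.41% and 6.38% of the rest, a difference of -0.514 points ± 0.312 (SD, n = 3). The classes at either end of the gene differed in opposite directions. For 5′ UTRs the shares were 3.47%, 3.6% and 3.89% of the strongest summits and 1.5%, 1.47% and 1.67% of the rest, a difference of 2.11 points ± 0.125 (SD, n = 3). For 3′ UTRs they were 1.97%, 2.04% and 2.27% of the strongest summits and 4.66%, 4.92% and 4.67% of the rest, a difference of -2.66 points ± 0.241 (SD, n = 3). The sign was the same in 3 of 3 replicates for each of these 4 comparisons. An exact two-sided sign-flip permutation test over the 3 replicates gave p = 0.25 for each, the smallest value that 3 replicates allow, so no test here can reach 0.05.

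**Figure D2:**
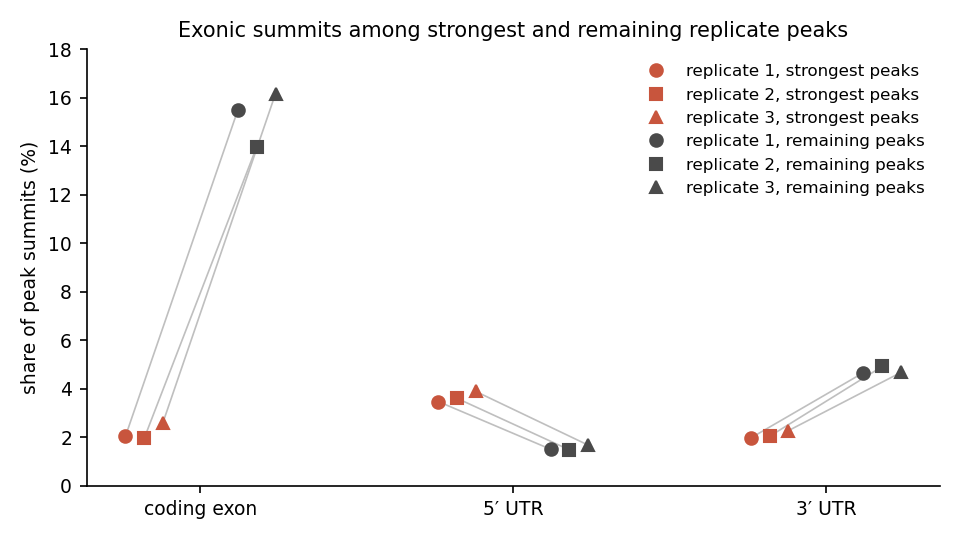
Percent of peak summits in coding exons, 5′ UTRs and 3′ UTRs (vertical axis) among the 5993 strongest peaks of each replicate (left, red) and its remaining peaks (right, grey); each symbol is 1 replicate and lines join the values of a replicate. Coding exons lie at 1.95% to 2.60% on the left and 14% to 16.2% on the right, and 5′ UTRs slope the other way.

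The optimal list showed the same gradient within itself. Of its 10 equal bins by signal, the strongest held 2 coding exon, 19 5′ UTR and 1 3′ UTR peaks, and the weakest held 20, 14 and 20. Coding exon peaks made up 24 of the 2996 strongest peaks and 89 of the other 2997. The median signal was 70.3 for coding exon peaks, 79.0 for 3′ UTR peaks and 123 for 5′ UTR peaks, against 108.5 for the whole list. Introns had a median of 88.3 and intergenic peaks one of 121. The signal is the value the authors' caller gave each peak, used here to rank and describe peaks within a list. Set against the sequence available, coding exons carried 4.56 optimal peaks per megabase, 3′ UTRs 33.4 and 5′ UTRs 145, while the whole genome carried 59.8, introns 45.1 and intergenic sequence 108.4. The summit of 55 exonic peaks lay within 10 bp of the end of the exon sequence, and 61 peaks outside lay as near to it, with median signals of 99.3 and 119. These peaks would change class with a small shift of the summit. Peak width also differed: 85 of 113 coding exon peaks (75.2%), 70 of 111 3′ UTR peaks (63.1%) and 73 of 203 5′ UTR peaks (36%) were exactly 336 bp wide, against 44.4% of the whole list.

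**Figure D3:**
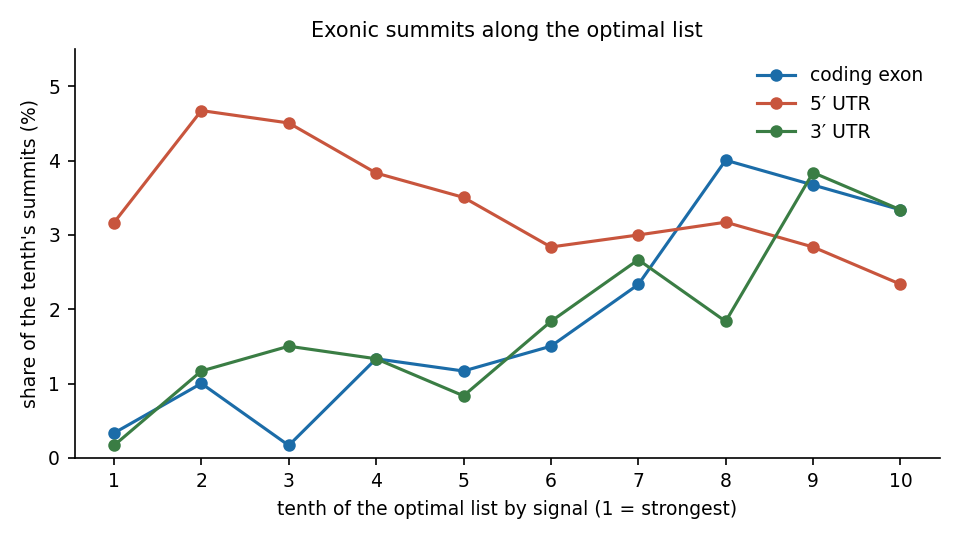
Share of summits in coding exons, 5′ UTRs and 3′ UTRs (vertical axis, percent) in 10 equal bins of the optimal list ordered by signal (horizontal axis, strongest first). The coding exon line lies at 0.333% in the first bin and 3.34% in the last, and the 5′ UTR line is highest in the second bin, at 4.67%.

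**Figure D4:**
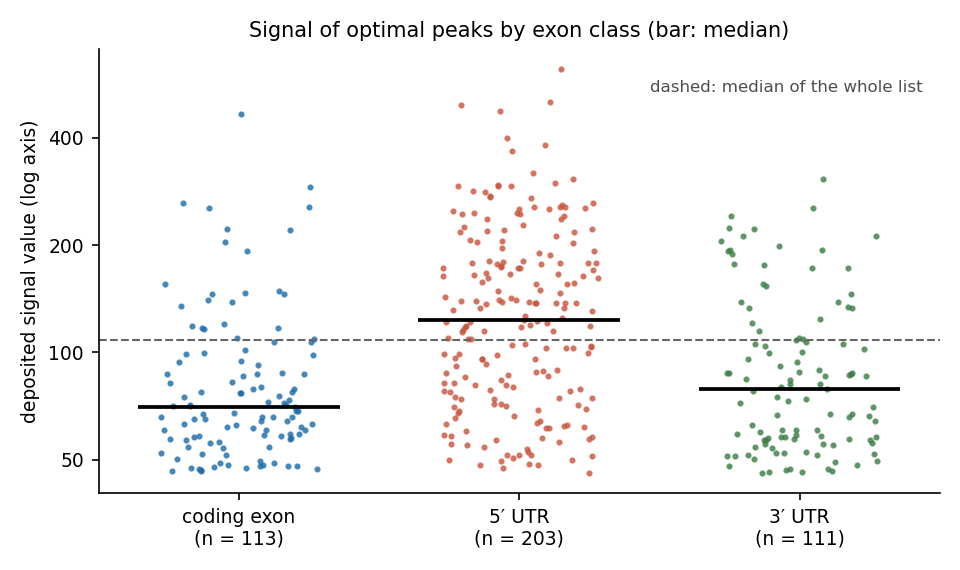
Deposited signal of each coding exon, 5′ UTR and 3′ UTR peak of the optimal list (vertical axis, logarithmic). Each point is a peak, thick bars are class medians (70.3, 123 and 79.0) and the dashed line is the median of the whole list, 108.5.

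A smaller share of coding exon peaks than of the whole list was found among the strongest peaks of every replicate. Of the 113, 43 (38.1%) were covered over at least 50% of their length by the strongest peaks of all 3 replicates, with 78.8%, 70.8% and 65.5% in replicates 1, 2 and 3 taken singly. Over the whole list the share in all 3 was 56.5%, and 86.2%, 79.6% and 75.1% singly. The share in all 3 replicates was 63.1% for 5′ UTR peaks (128 of 203) and 45% for 3′ UTR peaks (50 of 111). Signal moves with this share: among the weaker 2997 peaks it was 28.1% for coding exons, 29.6% for 3′ UTRs and 47.1% for 5′ UTRs, against 36.8% for all. Among the 2996 strongest it was 75%, 86.7% and 74.6%, against 76.2%. The summit of the strongest overlapping replicate peak stayed in coding sequence for 100, 91 and 79 of the 113 in replicates 1, 2 and 3. Where it did not, it lay most often in an intron, 9, 16 and 20 times. The class was the same in all 3 replicates for 58 coding exon peaks (51.3%), 138 5′ UTR peaks (68%) and 83 3′ UTR peaks (74.8%), against 90.7% of all peaks. The exons at coding exon summits had a median length of 220.0 bp, those at 5′ UTR summits 247 bp and those at 3′ UTR summits 605 bp. For coding exon peaks the median shift of the summit was 8.5, 22 and 33 bp in replicates 1, 2 and 3. Over the whole list it was 8, 14 and 23 bp. Whether exon length or this shift bears on the agreement in class was not tested. The rank correlation of signal across the 113 coding exon peaks was 0.440 between replicates 1 and 2, 0.430 between 1 and 3, and 0.414 between 2 and 3. For the 203 5′ UTR peaks it was 0.839, 0.779 and 0.766, for the 111 3′ UTR peaks 0.581, 0.615 and 0.538, and for the whole list 0.802, 0.766 and 0.753. These correlations run across peaks of shared libraries and a restricted signal range, and are descriptions.

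The strongest coding exon peak stood far inside its gene. It lay in pks-1, which encodes a polyketide synthase (WBGene00016558, chrX:5429318-5429758), in exon 22 of 31 and 15728 bp from the nearest start of that gene. Its signal was 467 and it ranked 80, 151 and 111 in replicates 1, 2 and 3, with the summit in coding sequence each time. The nearest start of another gene was 15188 bp downstream of it, at C41A3.2. Its cover by the strongest peaks reached 50% in 2 of 3 replicates. The next in signal was daf-15 (WBGene00000911, chrIV:9386081-9386344), the Raptor gene, at a signal of 292 and ranked 776, 239 and 461, and its summit was 2 bp into the gene. At lelo-4 (WBGene00015945, chrII:5714925-5715128) the signal was 262 and the ranks 818, 1512 and 185, with the summit 97 bp from the start. At R12C12.6, a transmembrane protein 9 gene (WBGene00020026, chrII:6047737-6047961), the signal was 256 and the ranks 823, 504 and 1429. These 3 peaks were thus at the first exon, unlike that of pks-1.

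The other members of the 10 strongest coding exon peaks followed at lower signal. Y18D10A.4 had a signal of 254, rpb-7, a subunit of RNA polymerase II, 223, F55C7.2 220.0 and F09G8.5, a leucine-rich repeat gene, 205, and all 4 summits lay in exon 1 within 125 bp of the start. A replicate ranked each of these 4 peaks between 504 and 2812. The C-type lectin gene clec-223 (signal 193; ranks 1632, 1223 and 915) and C15A11.4 (signal 155; ranks 2366, 3275 and 913) held their summits further in, in exon 3 of 11 and in the last of 9 exons, 1470 and 2112 bp from the start. The weakest were in snt-1, the synaptotagmin gene (signal 46.8), the PHD-domain gene phf-30 (46.6) and chaf-1, a chromatin assembly factor gene (46.3). Their ranks spread widely, from 4513 to 18496 in the case of snt-1.

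Across all 113, the median position was 773 bp past the nearest start of the host gene, with summits before that start counted as negative. A total of 25 summits were within 100 bp of it, 47 within 500 bp and 31 beyond 2000 bp. An exon that was first in some transcript held 41, one that was last held 26, and 54 lay only in internal exons. A promoter window, reaching from 2000 bp before to 500 bp after any protein-coding start, took in 66 of the 113 (58.4%), against 68.9% of the whole list. Such windows cover 46.8% of all coding bases. Within them the median signal was 71.0 and outside 67.3. Starts of other genes were also near: 33 summits (29.2%) lay within 2000 bp upstream of another gene's start, 10 of them within 500 bp. Of the 111 host genes, 53 (47.7%) had a further optimal summit in their own promoter window, against 25.5% of all 19973 protein-coding genes with any summit there. GC content within 50 bp of the summit had a median of 42.6%, against 43.6% for the whole list and 40.6% for windows along all coding exons.

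**Figure D5:**
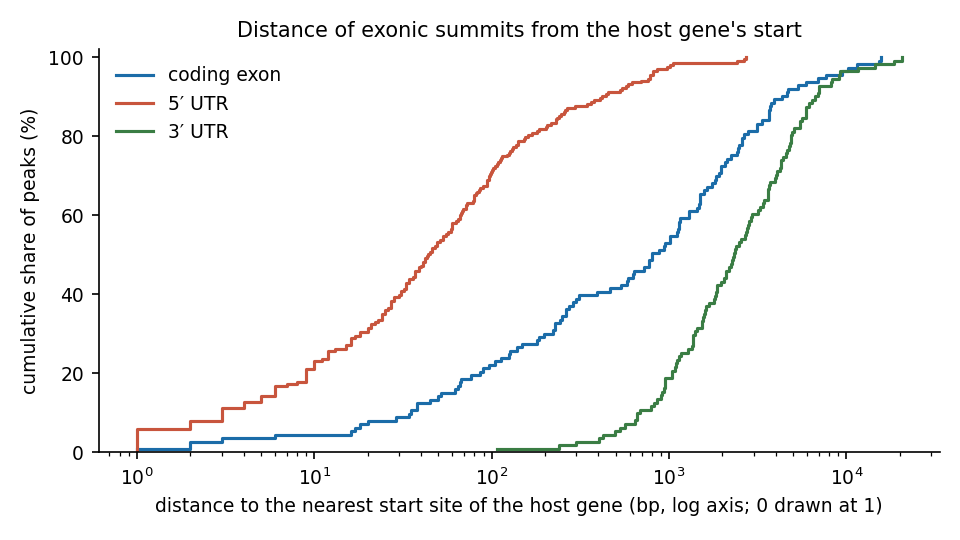
Cumulative share of coding exon, 5′ UTR and 3′ UTR peaks (vertical axis, percent) by unsigned distance of the summit from the nearest annotated start of the host gene (horizontal axis, bp, logarithmic). Within 100 bp lie 71.4% of 5′ UTR peaks, 22.1% of coding exon peaks and no 3′ UTR peak.

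Peaks in 5′ UTRs included the strongest exonic peaks of all. The top signal, 623, was at rab-18, a small GTPase gene (WBGene00004277, chrIII:1080605-1080907), 15 bp from its start, and this peak ranked 31, 25 and 26 in replicates 1, 2 and 3. At ints-4, a subunit of the Integrator complex that processes small nuclear RNAs (WBGene00012234, chrI:13663222-13663549), the signal was 504 and the ranks 89, 43 and 121. C34C12.2, with a fibronectin domain (WBGene00007921, chrIII:3456274-3456556), reached a signal of 496 and ranked 123, 67 and 27, but its summit was 2633 bp from the start and outside any promoter window. The ONECUT homeobox gene ceh-38 (WBGene00000459, chrII:6951378-6951773) reached a signal of 477 and ranked 85, 86 and 174. These 4 peaks were therefore among the 174 strongest in every replicate.

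The next 5′ UTR peaks were at enee-1 (signal 399.3), eef-1B.1, which encodes a translation elongation factor (382), R04E5.9 (367) and the C2H2 zinc finger gene gldi-8 (319). Their ranks ran from 130 to 683. The summit at enee-1 was on the first base of the gene, and it fell in intergenic sequence in replicates 1 and 3. The weakest were B0250.18 (48.2), the globin gene glb-19 (47.4) and gst-24, a glutathione transferase gene (45.9), whose ranks ran from 4314 to 22312.

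Over all 203, the median position was 28.0 bp past the host's nearest start, with summits before that start counted as negative. In either direction, 145 summits were within 100 bp of the start and 3 beyond 2000 bp. A first exon held 196 of them. A promoter window took in 195 (96.1%), and such windows cover 92.7% of all 5′ UTR bases. The 99 summits within 2000 bp upstream of another gene's start made up 48.8%, and 57 were within 500 bp. Their GC median of 44.6% stood above the 36.6% of windows along all 5′ UTRs, and the whole list had 43.6%. Another optimal summit was present in the promoter window of 51 of 199 host genes (25.6%), against 25.5% of all genes with any summit there.

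Peaks in 3′ UTRs lay far from the start of their host and, like 5′ UTR peaks, often close to that of another gene. The strongest, with a signal of 307, was at T08B2.15, 157 bp upstream of rbm-5, an RNA-binding protein gene (WBGene00206356 for T08B2.15, chrI:6215433-6215684). It ranked 627, 259 and 565 in replicates 1, 2 and 3. At C06H5.8 (WBGene00044795, chrV:17921506-17921732), 148 bp upstream of E01B7.2, the signal was 255 and the ranks 985, 331 and 1158. The solute carrier gene slc-25A46 came next, at a signal of 241 (ranks 803, 619 and 1423), 939 bp upstream of the translation factor gene eif-3.J. At K08F9.3, a glycosyl hydrolase gene, the signal was 223, 34 bp upstream of K08F9.4, with ranks of 1448, 635 and 986.

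The remaining 4 of the 8 strongest were Y54E2A.10 (signal 222), ints-3 (212), an Integrator subunit gene, eat-16 (212), which encodes an RGS protein that acts on the Gq alpha subunit in worms, and the carbonic anhydrase gene cah-4 (205). Of these, eat-16 was 1742 bp upstream of ceh-5 and the other 3 lay in no promoter window. The ints-3 summit was 20430 bp from the start of its host, the greatest distance in the 3 classes. The weakest were unc-73, the Trio guanine nucleotide exchange factor gene of axon guidance (46.2), Y48G1C.8 (46.02) and the zinc finger gene ztf-22 (45.8). At Y48G1C.8 the ranks were 7966, 29344 and 3012, so replicate 2 placed it near the end of its list.

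Of all 111 3′ UTR peaks, 62 (55.9%) were within 2000 bp upstream of another gene's start and 35 (31.5%) within 500 bp. For 5′ UTR peaks these shares were 48.8% and 28.1%, and for coding exon peaks 29.2% and 8.85%. Closeness to another gene's start was thus not particular to 3′ UTR peaks. A promoter window took in 66 (59.5%), while such windows cover 46.1% of all 3′ UTR bases. Signal was higher inside a window, with a median of 95 against 59.6 outside. Likewise the strongest peaks of every replicate covered 39 of the 66 inside and 11 of the 45 outside. No test was made of this difference, since peaks are not replicates. The median position was 2321 bp past the host's own nearest start, with summits before that start counted as negative. Among the host genes, 61 (54.5%) had another optimal summit in their own promoter window, against 25.5% of all genes with any summit there. GC content at the summit had a median of 39.6%, against 30.7% for windows along all 3′ UTRs and 43.6% for the whole list.

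Across all genes exonic summits were uncommon, and the neuronal lists held a handful of hosts. A coding exon held a summit in 0.556% of all 19973 protein-coding genes (111) and a UTR in 1.60% (319), 2.14% in either (427). Of 24 pan-neuronal genes, 3 (12.5%) had one, all in coding exons: unc-33, which organises axonal microtubules (signal 109), unc-10, the RIM scaffold of the active zone (50.3), and snt-1 (46.8). Their replicate ranks were 1803, 6022 and 5801 for unc-33, and 6447 and 7793 for unc-10, which had no peak in replicate 3. For snt-1 they were 18496, 4776 and 4513. None of these peaks was among the 5993 strongest in every replicate. Of 16 GABA neuron genes, 1 (6.25%) had an exonic summit, ncs-2, a neuronal calcium sensor gene, in its 3′ UTR (signal 57.7; ranks 4611, 4405 and 5415). Of 28 body wall muscle genes, 1 (3.57%) did, unc-97, the PINCH adaptor of muscle attachments, in a coding exon (64.9; ranks 4989, 5687 and 6136). None of 17 cholinergic motor neuron genes, of 6 genes described as regulated by UNC-55, or of the 3 genes of the transgene had one. With lists of this size a share turns on single genes, and none was tested. No peak of any list lay within 2000 bp of unc-55, ttr-39 or dpy-20.

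Housekeeping groups carried many promoter peaks, and their exonic summits were 0 to 2 a list. Many promoter peaks were not particular to them, since 23 of the 24 pan-neuronal genes also had a summit in a promoter window. The counts were lower in other lists, at 6 of 16 GABA neuron, 13 of 28 body wall muscle and 2 of 17 cholinergic motor neuron genes. Of the 6 genes described as regulated by UNC-55, 2 had one. Over all 19973 protein-coding genes, 5088 (25.5%) had a summit in a promoter window and 427 (2.14%) in an exon, so counts of 0 or 1 in lists of this size are near the share over all genes. None of 81 ribosomal protein genes had an exonic summit, although 76 had a summit in a promoter window, and none of 33 proteasome subunit genes, with 29 in a window. Of 39 translation factor genes, 34 had a summit in a window and 1, eef-1B.1, in an exon. No exonic summit was found in 20 vacuolar ATPase genes or in 59 heat shock, DnaJ and chaperonin genes, and 16 and 37 of them had one in a window. Among 32 aminoacyl-tRNA synthetase genes, 2 (6.25%) had one, the mitochondrial alanine enzyme gene aars-1 in the 5′ UTR (signal 77.9; ranks 4141, 4609 and 5121) and the cysteine enzyme gene cars-1 in a coding exon (70.8; ranks 5169, 4001 and 3882). Of 58 splicing and RNA-binding genes, hrpa-2 was the only host (3′ UTR, 70.4; ranks 3971, 8779 and 4130).

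Among regulators, and against 2.14% of all protein-coding genes, 3 of 63 homeobox genes named ceh (4.76%) were hosts. Besides ceh-38 these were ceh-93, in a coding exon (signal 74.7; ranks 4156, 4216 and 6400), and ceh-88, in the 3′ UTR (73.2; ranks 3646, 5377 and 2616). The family of unc-55 itself, 269 nuclear hormone receptor genes, had 2 hosts (0.743%), both in coding exons. They were nhr-3 (signal 109; ranks 3343, 4114 and 1841) and nhr-66 (47.3; ranks 6988, 5439 and 7824). Chemoreceptor genes had 3 hosts among 1171 (0.256%), srb-5 (98.2), srz-97 (62.5) and sri-69 (57.0). F-box genes had 2 among 322 (0.621%), fbxc-54 (202) and fbxa-3 (164), both in the 5′ UTR. Promoter windows held a summit in 12 ceh, 32 nuclear hormone receptor, 38 chemoreceptor and 31 F-box genes. Over all genes that share was 25.5%, and no list was tested. No exonic summit lay in 72 histone, 25 hlh, 156 cuticle collagen, 31 FMRFamide-like peptide, 71 neuropeptide-like protein or 31 major sperm protein genes. In the same order, 11, 3, 13, 3, 6 and 0 of these genes had a summit in a promoter window. These absences were not tested, and lists of this size would hold few hosts at the 2.14% of all genes.

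The exonic peaks were spread over all chromosomes. Chromosome I held 99 of the 438 (22.6%), against 18.5% of the whole list, and X held 71 (16.2%), against 18.8%. For coding exon peaks alone X held 22 of 113 (19.5%). The 438 peaks lay in 431 host genes, of which 14 held 2 and none held more. The 6 summits in the 5′ UTR of a gene and the 3′ UTR of another had signals from 49.1 to 114 and were all in promoter windows. They lay in F49E8.6 and F49E8.7, F25H9.2 and bath-39, Y39A1C.1 and hex-3, let-607 and try-6, sas-6 and icap-1, and ile-1 and K07A1.15, and both genes of each pair are on the same strand. The 5 summits in exons of non-coding transcripts lay in ash-2, a histone methyltransferase complex gene, with signals of 261 and 65.4, the forkhead gene fkh-7 (153), ZK546.2 (77.0) and srd-70 (52.1).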

How the data were processed

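Whole L2 larvae were assayed by UNC-55 ChIP-seq, with 3 replicates in 1 group. The authors deposited peak lists in ce11 with a signal value per peak and a −log10 q-value, per the file headers and format. The lists held 30000, 30000 and 25262 peaks for replicates 1 to 3, 30000 for the pooled reads, and 5993 in the optimal list, which holds the peaks past the authors' threshold on irreproducible discovery rate, per the notes deposited with the files. The aligner and caller: not given in the sources used here. Depth is unknown, and the deposited −log10 q-value and the ce10 lists were not used further.

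Summits were placed on Ensembl 115 annotation, coding before UTR, with Python 3.11.15, numpy 2.4.6 and pandas 2.3.3. Genes were counted by identifier, since some share a symbol. Roles came from RefSeq product names and general knowledge. Named genes were the 10 strongest coding exon peaks, the 8 strongest of each UTR, the 3 weakest of each class, and the hosts in the gene lists (up to 3 for lists by name pattern). Others, such as unc-69, mtg-1, K10B3.5, vps-26, abhd-5.2 and fan-1, were chosen after their values were seen. Members, gene lists and words were chosen with earlier results of these data known. Nothing says more of the replicates than that they are biological, and peaks are not replicates, so the only test was over replicates. Scripts were tested on simulated annotation and peaks. The exact sign-flip permutation test gives its smallest value whenever all replicates share a sign, whatever the size of the differences. Its p-values here therefore show only that the signs were the same, and do not measure the spread between replicates. Alternatives were the peak midpoint, UTR before coding, RefSeq exons, other overlaps, windows and list sizes, and each replicate left out.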

Additional observations from a re-analysis of the deposited data

How the results depend on the processing

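The number of coding exon peaks was 111 to 117, and of UTR peaks 274 to 322, with the peak midpoint, UTR before coding, or RefSeq exons. The midpoint is a weak alternative, since in peaks of 336 bp such as those of snt-1 and unc-73 the deposited summit is the middle of the interval. That width was shared by 85 of 113 coding exon and 148 of 320 UTR peaks. Taking only the stronger part of the optimal list left 24 and 149. Requiring cover by the strongest peaks of only 2 replicates left 54 to 64 and 199 to 226. RefSeq and Ensembl placed 271 UTR peaks alike. The share among the strongest peaks of all 3 replicates was 20.4% for coding exons and 28.8% for UTRs at a cover of 80%, 67.8% for UTRs at an overlap of 1 bp, and 87.6% and 81.2% with whole replicate lists. With 1 replicate left out in turn it was 47.8% to 56.6% and 62.2% to 70.6%. AGGTCA was at 1.77% of coding exon and 2.19% of UTR peaks within 100 bp, and at 1.79% and 0.917% of coding exon peaks with summits of replicates 2 and 3, and 1.26% of UTR peaks with those of replicate 1. Promoter windows of 1000 bp upstream to 200 bp downstream took in 36.3% of coding exon and 75.6% of UTR peaks. In the stronger part of the list the wider windows took in 75% and 93.3%. The difference between strongest and remaining peaks kept its sign in every alternative run, from -13.5 to -12.8 points for coding exons and -0.694 to -0.419 for UTRs with 1 replicate left out, and -1.07 for UTRs with a smaller number of strongest peaks. Canonical transcripts were not run, since the annotation marks none. Depth is unknown, so no limit from it can be given.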

Other observations

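The peaks given here were chosen after their values were seen. The 3′ UTR peak of chtb-2, a chitin-binding gene, passed into the optimal list with a signal of 189 and ranked 984 in replicate 2, yet no peak of replicate 1 or replicate 3 overlapped it. In all, 4, 5 and 14 of the 438 exonic peaks had no overlapping peak in replicates 1, 2 and 3. The coding exon of Y18D10A.4 held 2 summits, with signals of 254 and 68.5, inside an identical interval of 535 bp, so the list counts that interval more than once. The 50 bases at the 5′ UTR summit of btb-4 (signal 48.6) occurred 5 times in the genome. No other coding exon or UTR summit had an exact second copy. The TALE homeobox gene unc-62 held a pair of 5′ UTR summits, with signals of 219 and 74.6.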
